A study of Drosophila melanogaster with 5 samples.

Results

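The genes described here are 10 patterning genes of the Drosophila wing and leg imaginal discs: vg, sd, nub, ap, Dll, wg, dpp, hh, en and ci. They were chosen by name, as textbook disc genes, with earlier results of these data known. Their rows were found by matching the gene identifiers of the count files to FlyBase symbols. All 10 were among the 17735 genes counted, and all 10 had enough reads to be among the 11045 genes tested. Their levels were compared between CG1603attP and y1w1118 larvae by poly(A) RNA-seq of whole larvae that the study describes as third-instar. CG1603 encodes Mzfp1, a zinc-finger protein that binds promoters and interacts with the architectural protein CP190. The 3 CG1603attP libraries came from homozygous CG1603attP/CG1603attP larvae, in which most of CG1603 is replaced by an attP site and a dsRed reporter under the 3P3 promoter. They were the offspring of parents that carried the deletion over the CyO GFP balancer. The 2 y1w1118 libraries came from the y1w1118 line. The study's results place the deletion in that line, while its methods describe injecting embryos of a Bloomington stock and crossing to a y1w1118 balancer line. The mutant larvae are written as y1w1118, so both groups carry the y1 and w1118 alleles. Each library was a biological replicate. The mutant is a single line whose homozygotes die as larvae, so other genetic differences between the lines cannot be told apart from loss of Mzfp1.

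Imaginal discs are sacs of epithelium in the larva that grow during larval life and form the adult wings, legs, eyes and other structures at metamorphosis. A wing or leg disc is divided into compartments by selector genes, such as en and, in the wing disc, ap. Hedgehog made by posterior cells, and Dpp and Wingless made along compartment borders, pattern the growth of the disc. The Vg and Sd proteins form a complex that gives wing cells their identity, while Dll plays that part for the distal leg. Most of these genes are also used outside the discs, in muscle, neurons, gut or epidermis, and the RNA came from whole larvae. A change in level could therefore reflect fewer cells of a type or less RNA per cell, and these cannot be told apart.

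The libraries held from 9310913 to 14514277 gene reads in CG1603attP, and 9044930 and 10954811 in y1w1118, after ribosomal RNA genes were left out. The unit of level is the CPM, a gene's reads relative to the TMM-scaled size of its library, and 1 read was worth 0.0668 to 0.116 CPM. CG1603 itself was counted 0, 0 and 3 times in CG1603attP, against 124 and 102 times in y1w1118, and was called lower (Benjamini-Hochberg adjusted p = 0.00445 in edgeR's quasi-likelihood test). One library of each genotype stood apart in genes that mark a moult. The summed level of 9 Tweedle and Osiris genes was 2001, 11.9 and 32.8 CPM in CG1603attP replicates 1, 2 and 3, against 6.97 and 959 CPM in y1w1118 replicates 1 and 2. The salivary glue genes that are switched on late in the third instar were close to absent, at 0.424 to 2.83 summed CPM in CG1603attP and 1.74 and 2.95 summed CPM in y1w1118. The exact stage of the larvae, which bears on the levels of disc genes, could not be settled from these data.

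Of the 10 genes, nub was higher in CG1603attP, ci was lower, and the other 8 were not called at an adjusted p of 0.05. Among all genes tested, 14.6% were called higher and 15.7% lower, so 1 gene of 10 in each direction is close to the share over all genes. An unadjusted p of 0.05 and DESeq2 gave the same counts. In vg and nub every CG1603attP library lay above both y1w1118 libraries, which held for 28.9% of all genes tested. In ap, dpp and ci every CG1603attP library lay below both, which held for 30.8% of all genes tested. The median log2 fold change of the 10 genes was -0.12, against -0.01 over all genes tested. Their summed level overlapped between the genotypes, at 418, 468 and 420 CPM in CG1603attP and 436 and 452 CPM in y1w1118.

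**Figure D1:**
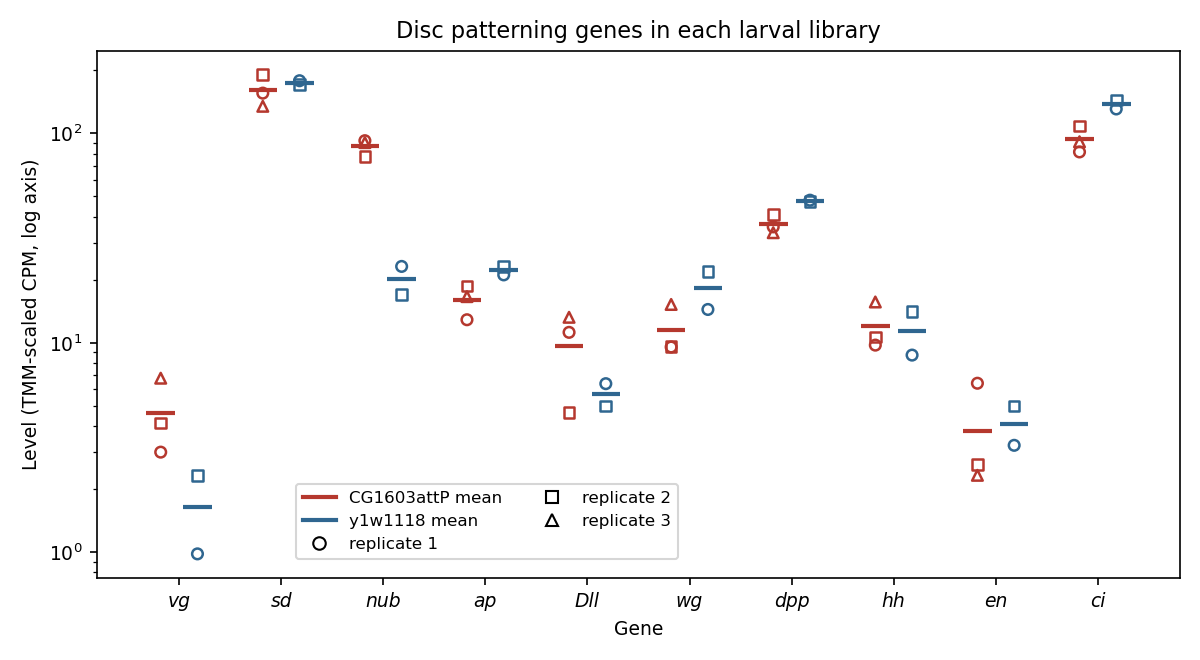
Level of each of the 10 genes in each library, in TMM-scaled CPM on a log axis, with CG1603attP in red left of y1w1118 in blue. Open symbols are libraries, with a shape for each replicate number, and bars are the means of 3 and 2 libraries. The symbols of nub lie at 77.9 to 92.4 CPM in CG1603attP, against 17.1 and 23.2 CPM in y1w1118, while those of sd, Dll, wg, hh and en overlap between the genotypes.

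The wing selector nub encodes a POU homeodomain protein that is needed in the wing pouch and hinge, and its product, also called Pdm1, marks enterocytes of the midgut. The gene (FBgn0085424) lies on chromosome 2L from 12587625 to 12628135 of the dm6 assembly. It was counted 1383, 1072 and 854 times in CG1603attP, against 236 and 147 times in y1w1118. As levels these were 92.4, 77.9 and 90.4 CPM in CG1603attP, against 23.2 and 17.1 CPM in y1w1118. The lowest mutant library was thus far above the highest y1w1118 library. The mean was 86.9 ± 7.87 CPM in CG1603attP (SD, n = 3) and 20.1 ± 4.32 CPM in y1w1118 (SD, n = 2). The change was 4.32-fold (95% interval 3.08 to 6.04), or 2.11 on the log2 scale with a standard error of 0.20 (edgeR, adjusted p = 0.000899). It was called under all 17 other ways of processing, with a log2 fold change between 1.84 and 2.34. Of 1569 genes called higher whose mean CPM over the 5 libraries had a log2 of 2 or more, nub ranked 209 by log2 fold change. A gene could pass this limit through its CG1603attP libraries alone.

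Its paralog pdm2 lies 29.0 kb further along 2L and encodes a POU protein with overlapping roles. It had 15.4, 12.8 and 12.2 CPM in CG1603attP, against 7.66 and 6.96 CPM in y1w1118. All mutant libraries were above both y1w1118 libraries, with a difference of 0.88 on the log2 scale (standard error 0.26; edgeR, adjusted p = 0.0469). The call was lost in 10 of the 17 other ways of processing, among them without CG1603attP replicate 1 (adjusted p = 0.119), without replicate 2 (0.0688), and without y1w1118 replicate 1 (0.212) or replicate 2 (0.296). Of the 6 tested genes within 50 kb of nub, pdm2 was called higher and Nepl7, which lies inside the span of pdm2, was called lower (log2 fold change -1.89; edgeR, adjusted p = 0.0322). Over all genes tested, 14.6% were called higher and 15.7% lower. With 1 of 6 in each direction, the neighbours of nub were close to these shares. Digestive enzymes of the midgut, where nub is also active, moved in both directions. Of 9 tested enzyme genes, 4 were higher, with alphaTry, Amy-p and betaTry first, and Jon99Ci and LManII were lower. These counts are to be read against the same shares of 14.6% higher and 15.7% lower. The summed level of the listed enzyme genes was 2910, 3022 and 3968 CPM in CG1603attP, against 1634 and 1482 CPM in y1w1118. The part of the gut in the nub result was not tested.

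The vg gene encodes the wing selector cofactor Vestigial, and sd encodes the TEAD factor Scalloped that carries Vestigial to DNA. Vestigial's gene (FBgn0003975; 2R, 12884201 to 12899385) had few reads, 45, 57 and 64 in CG1603attP and 10 and 20 in y1w1118. These correspond to 3.01, 4.14 and 6.78 CPM in CG1603attP, against 0.982 and 2.32 CPM in y1w1118. The libraries did not overlap, but the values within each genotype spread by 2.26-fold in CG1603attP and by 2.36-fold in y1w1118. The difference, 2.80-fold with a 95% interval of 0.930 to 8.46, did not pass the test (log2 fold change 1.49, standard error 0.66; edgeR, adjusted p = 0.142). It passed only where reads of a single strand setting were counted (adjusted p = 0.0412). The partner gene sd (FBgn0003345; X, 15804370 to 15827682) had 156, 191 and 135 CPM in CG1603attP, against 179 and 171 CPM in y1w1118. Its libraries overlapped, and the fold was 0.918 (log2 fold change -0.12, 95% interval -0.51 to 0.27, standard error 0.16; edgeR, adjusted p = 0.615). The sign of this small difference turned to 0.03 with scaling by library size only and to 0.02 without CG1603attP replicate 3.

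The dorsal selector ap encodes a LIM homeodomain protein that divides the wing disc into dorsal and ventral compartments. The gene (FBgn0267978; 2R, 5706202 to 5727525) had 12.9, 18.7 and 16.6 CPM in CG1603attP, against 21.1 and 23.2 CPM in y1w1118. Every mutant library was lower, but the difference did not pass the test (log2 fold change -0.46, standard error 0.24, fold 0.725 with a 95% interval of 0.489 to 1.07; edgeR, adjusted p = 0.192). With reads of a single strand setting, ap was called lower (log2 fold change -0.85, adjusted p = 0.0366). It was the only gene of the 10 in the study's lists of promoters bound by Mzfp1 in embryos, where it stands among euchromatin promoters with a binding site but no Mzfp1 motif. Dll encodes the homeodomain protein of the distal leg and other appendages. The gene (FBgn0000157; 2R, 24814822 to 24835667) had 11.2, 4.65 and 13.2 CPM in CG1603attP, against 6.38 and 4.99 CPM in y1w1118. The mutant libraries stood on both sides of the y1w1118 libraries, and CG1603attP replicate 2 was the lowest of the 5 (log2 fold change 0.77, standard error 0.50, fold 1.70 with a 95% interval of 0.741 to 3.90; edgeR, adjusted p = 0.300).

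Of the secreted signals, none was called. Wingless, the Wnt ligand of the dorsal-ventral border, is encoded by wg (FBgn0284084; 2L, 7307159 to 7316265). It had 9.55, 9.59 and 15.3 CPM in CG1603attP, against 14.4 and 21.9 CPM in y1w1118. CG1603attP replicate 3 reached into the range of y1w1118 (log2 fold change -0.67, standard error 0.32, fold 0.630 with a 95% interval of 0.368 to 1.08; edgeR, adjusted p = 0.171). The BMP ligand gene dpp (FBgn0000490; 2L, 2428372 to 2459823) was the steadier of the pair, at 35.8, 40.9 and 33.6 CPM in CG1603attP, against 48.0 and 47.2 CPM in y1w1118. All mutant libraries were lower, without passing the test (log2 fold change -0.37, standard error 0.18, fold 0.772 with a 95% interval of 0.577 to 1.03; edgeR, adjusted p = 0.160). The hh gene (FBgn0004644; 3R, 23128169 to 23141906) encodes the Hedgehog ligand that posterior cells send to anterior cells. It had 9.75, 10.7 and 15.7 CPM in CG1603attP, against 8.74 and 14.2 CPM in y1w1118. The libraries overlapped, and a fold between 0.593 and 1.86 lay within the 95% interval (log2 fold change 0.07, standard error 0.34; edgeR, adjusted p = 0.899). Its sign was kept in 13 of the 17 other ways of processing.

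In the compartments, en marks posterior cells and makes them produce Hedgehog, and ci encodes the transcription factor by which anterior cells respond to it. The ci gene (FBgn0004859; chromosome 4, 47710 to 57041) had 81.6, 108.5 and 91.3 CPM in CG1603attP, against 131 and 145 CPM in y1w1118. The highest mutant library was below the lowest y1w1118 library. The mean was 93.8 ± 13.6 CPM in CG1603attP (SD, n = 3) and 138 ± 9.69 CPM in y1w1118 (SD, n = 2), a fold of 0.681 (95% interval 0.529 to 0.877). The log2 fold change was -0.55 with a standard error of 0.15 (edgeR, adjusted p = 0.0348). This call was lost in 6 of the 17 other ways of processing, while the sign was kept in all 17. It was lost without CG1603attP replicate 1 (adjusted p = 0.0829) or replicate 3 (0.0832), without y1w1118 replicate 1 (0.131) or replicate 2 (0.214), and with scaling by library size only (0.113). The exons of ci share 53 bp with those of the antisense gene asRNA:CR43957, and reads there could not be assigned by strand.

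The en gene (FBgn0000577; 2R, 11524006 to 11528210) had 6.41, 2.62 and 2.33 CPM in CG1603attP, against 3.24 and 4.99 CPM in y1w1118. Its libraries overlapped widely, and its sign was kept in 12 of the 17 other ways of processing (log2 fold change -0.11, standard error 0.62, fold 0.926 with a 95% interval of 0.332 to 2.58; edgeR, adjusted p = 0.912). Within each genotype en was highest in the library with high moult genes, CG1603attP replicate 1 and y1w1118 replicate 2. The share of all genes with this order was not counted, so it is not read as particular to en. The part of the moult in this was not tested. Its paralog inv, a homeobox gene whose end is 14.3 kb from en, had 8.82, 9.73 and 15.4 CPM in CG1603attP, against 5.20 and 6.27 CPM in y1w1118. Every mutant library was higher, but inv was not called (log2 fold change 0.98, standard error 0.36; edgeR, adjusted p = 0.0895). Of the 8 disc genes not called, vg alone had a 95% interval that reached a 4.32-fold rise as in nub, and differences within the intervals were not detectable with these libraries.

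**Figure D2:**
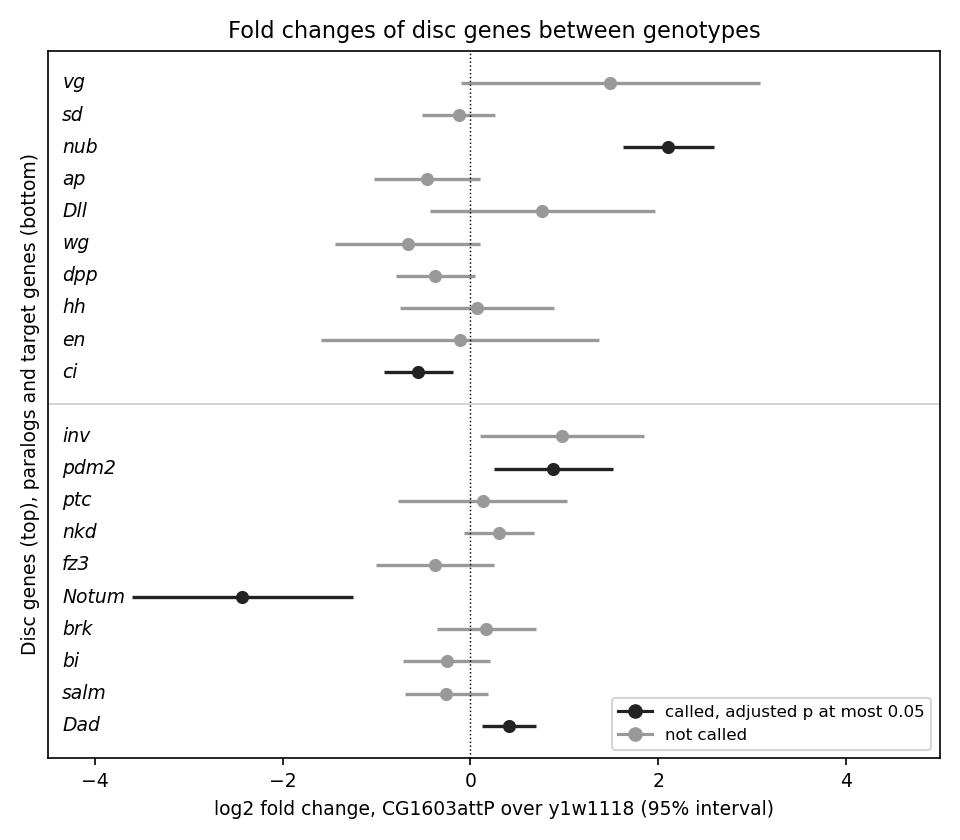
Log2 fold change, CG1603attP over y1w1118, of the 10 genes (upper block) and of their paralogs and textbook target genes (lower block). Points are estimates from edgeR, bars are 95% intervals, and black marks a call at an adjusted p of 0.05. The interval of nub lies wholly to the right of all those of the genes not called except vg, Dll and inv, and ci, pdm2, Notum and Dad are the other calls.

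Because the 10 genes have transcripts of different lengths, their levels were set in order only after division by exon length. In CG1603attP, sd had 18.3, ci 16.6 and nub 16.5 CPM per kb of exon. The ranges of these 3 genes overlapped between libraries, and no other gene of the 10 reached them. Then came dpp with 7.05, hh with 5.08, wg with 3.93, ap with 3.72, Dll with 2.93, en with 1.36 and vg with 1.19 CPM per kb. Each of these overlapped with its neighbour in the order. In y1w1118, ci was first with 24.4, then sd with 19.9 and dpp with 9.13 CPM per kb, and these 3 did not overlap with each other or with the rest. They were followed by wg with 6.23, ap with 5.13, hh with 4.83 and nub with 3.81 CPM per kb, each overlapping with its neighbour. Dll with 1.72 and en with 1.47 CPM per kb overlapped, and vg was last with 0.424 CPM per kb. Between the genotypes nub thus stood at rank 3 in CG1603attP and rank 7 in y1w1118, and vg at rank 10 in both.

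Whether pairs of these genes moved unequally was asked with log2 ratios within each library. These depend on the scaling between libraries only through the pseudocount of 0.5 CPM, which weighs most on low genes such as vg. The ratio of nub to sd was -0.75, -1.29 and -0.57 in CG1603attP, against -2.92 and -3.29 in y1w1118. It was higher in every mutant library, by 2.23 on average, and reached the smallest p that 10 arrangements of the libraries allow (exact permutation test, two-sided, p = 0.1). The ratio of nub to vg differed by 0.83 and overlapped between the genotypes (exact permutation test, p = 0.4). This value rests on single libraries, since it was 1.51 without y1w1118 replicate 1, 0.15 without replicate 2 and 0.54 without CG1603attP replicate 1. It also moved with the pseudocount, to 0.65 at 0.1 CPM and 1.17 at 2 CPM. The ratio of ci to the ligand gene hh differed by -0.64 (exact permutation test, p = 0.2). All 3 mutant values were lower, the highest at 3.29 in CG1603attP and the lowest at 3.31 in y1w1118, and the difference was -0.38 without y1w1118 replicate 1 and -0.90 without replicate 2. The difference for Dll to vg was -0.65 (exact permutation test, p = 0.4), with -0.02 without y1w1118 replicate 1, -1.28 without replicate 2, -1.05 without CG1603attP replicate 1 and -0.26 without its replicate 2. With a pseudocount of 0.1 CPM the difference was -0.83, and with 2 CPM it was -0.32. For en to inv it was -1.09 (exact permutation test, p = 0.3), with -1.65 without CG1603attP replicate 1 and -0.62 without its replicate 3. None of the 5 ratios could pass a threshold of 0.05 with 3 libraries against 2, and each adjusted p was 0.4.

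Calls among the pathway genes around the 3 signals are to be read against the shares over all genes tested, 15.7% lower and 14.6% higher. Of 15 tested Hedgehog pathway genes, 1 was lower and 1 higher, with a median log2 fold change of 0.13. Pka-C1, the kinase catalytic subunit that primes Ci for processing, had 306, 326 and 277 CPM in CG1603attP, against 568 and 559 CPM in y1w1118 (log2 fold change -0.90; edgeR, adjusted p = 0.00215). The Hedgehog release gene disp had a log2 fold change of 0.88 (adjusted p = 0.0164). The receptor gene ptc, itself a target of Ci, had 42.7, 37.3 and 19.5 CPM in CG1603attP, against 36.9 and 23.8 CPM in y1w1118, and was not called (log2 fold change 0.13, adjusted p = 0.829). The lower level of ci thus stood beside overlapping levels of ptc.

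Among 20 tested genes of the Wingless pathway, 2 were lower and 1 higher, with a median of 0.08. Notum, a target gene that encodes a secreted inhibitor of Wingless, fell most. It had 2.60, 2.40 and 1.06 CPM in CG1603attP, against 9.23 and 12.9 CPM in y1w1118 (log2 fold change -2.43, standard error 0.49; edgeR, adjusted p = 0.0118). The glypican gene dally was also lower (log2 fold change -0.77, adjusted p = 0.00561), and Apc, a part of the complex that destroys Armadillo, was higher (0.88, adjusted p = 0.00211). The feedback targets nkd (log2 fold change 0.30, adjusted p = 0.197) and fz3 (-0.38, adjusted p = 0.326) were not called, so 1 of the 3 textbook targets on the list was called. Of 15 tested genes of the Dpp pathway, 1 was lower and 2 were higher, with a median of 0.39. The receptor gene tkv had a log2 fold change of -0.54 (adjusted p = 0.0191), and the zinc-finger cofactor gene shn one of 0.45 (adjusted p = 0.0420). Dad, an inhibitory Smad that Dpp signalling induces, had 131, 129 and 142 CPM in CG1603attP, against 106.5 and 94.4 CPM in y1w1118 (log2 fold change 0.41, adjusted p = 0.0438). The Dpp targets bi, salm, salr and brk were not called and differed in sign. Their log2 fold changes were -0.26 for bi, -0.26 for salm, 0.39 for its paralog salr and 0.17 for brk, the repressor that Dpp turns off (adjusted p = 0.377, 0.350, 0.329 and 0.612).

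Partners and targets of sd stood in the Hippo list, where 3 of 14 tested genes were lower and 2 higher, with a median of 0.02. Diap1, the caspase inhibitor that Yorkie and Scalloped activate, had 285, 249 and 299 CPM in CG1603attP, against 118 and 114 CPM in y1w1118 (log2 fold change 1.26; edgeR, adjusted p = 0.00103). The coactivator gene yki was higher (0.82, adjusted p = 0.0144), and the genes of the kinase hpo (-0.72, adjusted p = 0.0262), the cadherin ds (-0.69, adjusted p = 0.0355) and the Golgi kinase fj (-0.81, adjusted p = 0.0487) were lower. The other 9 genes of the list were not called, among them ex (0.03, adjusted p = 0.895) and kibra (-0.02, adjusted p = 0.92). Of 10 Notch and wing margin genes, the receptor N was lower (-0.62, adjusted p = 0.0210) and 0 were higher, also at an unadjusted p under 0.05 and by DESeq2. Of 8 EGFR pathway genes, the feedback inhibitor kek1 (0.81, adjusted p = 0.0115) and the transcription factor pnt (0.61, adjusted p = 0.0262) were higher and 0 were lower, against 1 lower at an unadjusted p under 0.05 and 1 by DESeq2.

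Other region genes of the discs were mostly not called. Of 16 wing region genes, kn, which patterns the centre of the wing, was higher (log2 fold change 1.01; edgeR, adjusted p = 0.0185), and hth, which marks the hinge and notum, was lower (-0.79, adjusted p = 0.0102). Of 17 leg region genes, Lim1, a LIM homeobox gene of the distal leg, had 12.7, 14.8 and 28.8 CPM in CG1603attP, against 5.30 and 6.73 CPM in y1w1118 (log2 fold change 1.64; edgeR, adjusted p = 0.0291). In the leg list 0 genes were lower, also at an unadjusted p under 0.05 and by DESeq2. Of 7 tested eye-antennal genes 0 were called in either direction, against 1 higher at an unadjusted p under 0.05 and 0 by DESeq2. Across all 124 tested genes of these lists and the paralogs, 9 were lower and 11 higher, and the median log2 fold change was 0.10. Both counts are smaller shares of the list than those over all genes, a difference that was not tested. With scaling by library size only the counts became 4 lower and 21 higher.

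**Figure D3:**
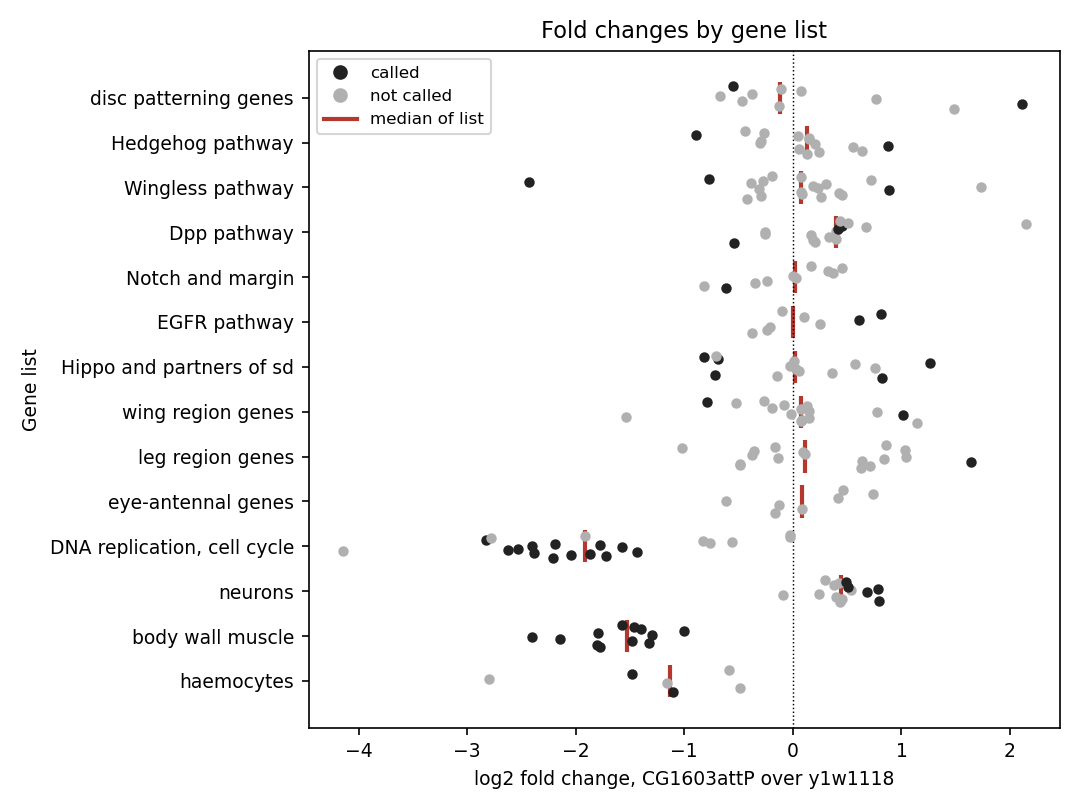
Log2 fold change, CG1603attP over y1w1118, of each tested gene of the disc lists and of 4 lists of markers of other cells and of dividing cells. Points are genes, black where called by edgeR at an adjusted p of 0.05, and red lines are list medians. The disc lists have medians between -0.12 and 0.39. DNA replication and cell cycle, body wall muscle and haemocyte genes have medians of -1.91, -1.53 and -1.13, and neuronal genes one of 0.44.

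Several lists of markers of other cells had medians further from 0. Of 21 tested DNA replication and cell cycle genes, used by dividing cells of the discs and elsewhere, 13 were lower in CG1603attP, with stg, RnrL and RnrS lowest, and their summed level was 306, 308 and 349 CPM in CG1603attP, against 787 and 761 CPM in y1w1118. All 12 body wall muscle genes were lower, with bt, wupA and Mlc1 lowest, at 21570 to 28230 summed CPM in CG1603attP and 83170 and 90110 in y1w1118. Of 14 neuronal genes 5 were higher, with brp, VAChT and cac first, at 1968 to 2382 summed CPM in CG1603attP and 1584 and 1628 in y1w1118. Of 6 haemocyte genes Pxn and Hml were lower, at 382 to 427 summed CPM in CG1603attP and 841 and 859 in y1w1118. Of 6 tested larval cuticle genes 4 were lower, with Lcp3, Cpr67Fa1 and Ccp84Ab lowest, at 30.7 to 47.7 summed CPM in CG1603attP and 376 and 486 in y1w1118. In these 5 lists 0 genes were called in the other direction, and 0 also at an unadjusted p under 0.05 and by DESeq2. Of 5 tested fat body genes apolpp was lower and Lpin higher. On the same list Lsp1alpha, Lsp2 and Fbp2 had too few reads to be tested. Over the 5 libraries they were counted 0 to 12, 0 to 11 and 0 to 34 times in that order. Of the 9 moult genes 0 were called, also at an unadjusted p under 0.05 and by DESeq2. As these genes were high in 1 library of each genotype, the comparison of genotypes had little room to call them. The part of these cells in the levels of the 10 disc genes was not tested.

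The genes whose levels across the 5 libraries were closest to those of nub, among 8797 candidates, were puml, Dgp-1 and CG11426. Their distances, measured on centred log2 levels, were 0.17, 0.19 and 0.22. Each was called higher in CG1603attP, by 4.31-fold, 4.26-fold and 4.25-fold in that order, with 206, 166 and 226 CPM in CG1603attP and 52.7 and 39.7 CPM in y1w1118 for puml. The closest to vg, among 8798 candidates, were Hsp70Ab, Pgcl and CG14495, at distances of 0.34, 0.35 and 0.36. Hsp70Ab has near-identical copies among which reads cannot be placed well, so its value is uncertain. For all 6 genes the likeness describes 5 libraries of 2 genotypes, and any gene with a change of similar size is close by this measure.

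**Figure D4:**
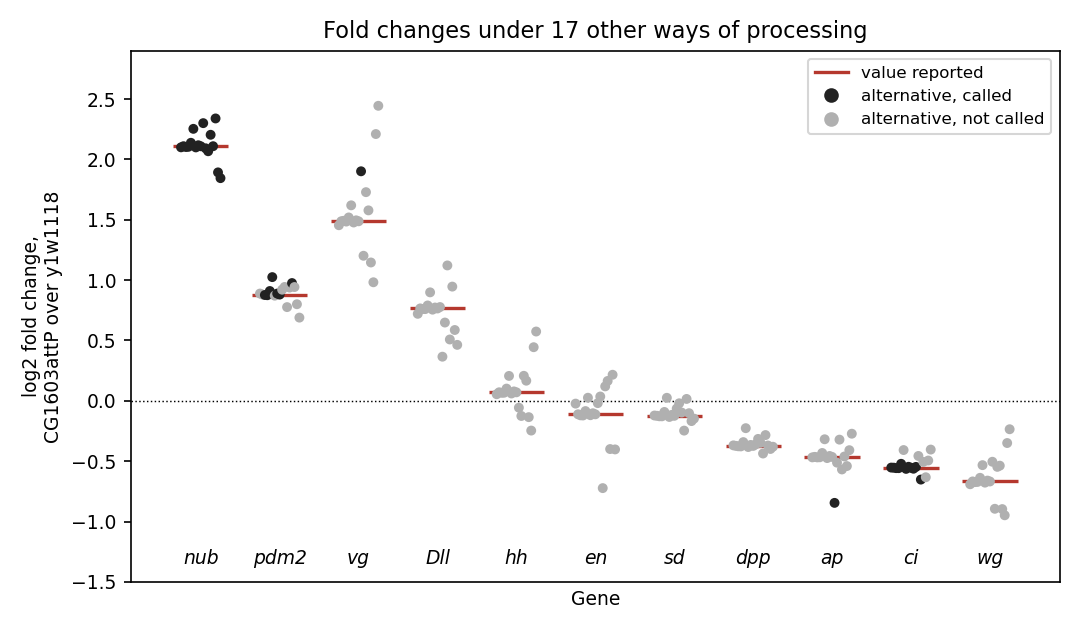
Log2 fold change, CG1603attP over y1w1118, of the 10 genes and pdm2 under 17 other ways of processing. Points are alternatives, black where the gene was called, and red lines are the values reported. All 17 points of nub are black and lie between 1.84 and 2.34, 11 of ci are black, and those of sd, hh and en lie on both sides of 0.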

How the data were processed

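Whole larvae, described as third-instar, were used for poly(A) RNA-seq, with 3 CG1603attP and 2 y1w1118 libraries grouped by their labels. After trimming with cutadapt and alignment to dm6, the authors counted reads per gene with the GeneCounts option of STAR and deposited these counts without normalization. Tool versions and the release of the annotation are not given in the sources used here. Reads with several alignments or over more than one gene are left out of gene counts by STAR. Unstranded counts were used, since the library kit does not mark strand. The 4 summary lines and 138 ribosomal RNA genes were left out. Ribosomal RNA genes held 3.40% to 4.57% of gene reads in CG1603attP and 8.04% and 9.62% in y1w1118. The summary lines held 23.8% to 30.0% (unmapped), 5.58% to 10.6% (multimapping), 4.15% to 6.22% (no feature) and 3.28% to 6.26% (ambiguous) of all reads.

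The test was run in edgeR 4.0.16 under R 4.3.3 (filterByExpr with a minimum count of 10 and a total of 15, TMM, estimateDisp, glmQLFit in its legacy form, glmQLFTest), adjusted by Benjamini-Hochberg over 11045 genes at a threshold of 0.05. The study's methods state no filter. The p-values measure the spread between these libraries, and the common dispersion was 0.141. Standard errors are the size of the log2 fold change over the square root of F, and 95% intervals use the t distribution. Counting limits (3 reads are at most 0.348 CPM) cover counting error only. The fit was tested on counts simulated at the common dispersion. It recovered 168 of 200 changed genes and called 11 unchanged ones. Changes as small as those of ci or pdm2 were not simulated. Ratios used a pseudocount of 0.5 CPM. Symbols, positions and exon lengths came from the Ensembl annotation of dm6, and 235 of 237 list entries were matched.

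The members and lists were chosen with earlier results of these data known. The rule named the 10 genes, their paralogs, 8 textbook targets, CG1603 and up to 3 called genes at each end of each list. It also named the 3 genes nearest to nub and to vg whose mean CPM had a log2 of 2 or more. The genes salr, Nepl7, ex, kibra, Lsp1alpha, Lsp2 and Fbp2 fall outside the rule and were named after their values were seen. Distances were Euclidean over centred log2(CPM + 0.5). Alternatives were the current and the robust quasi-likelihood fit, DESeq2 1.42.0, scaling by upper-quartile or RLE factors or by library size only, no filter or a stricter filter on low counts, keeping the ribosomal RNA genes, counts of one strand setting, leaving out each replicate, and the replicate number as a block. A fit without both moult-high libraries was chosen after seeing the data.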

Additional observations from a re-analysis of the deposited data

How the results depend on the processing

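The spread within y1w1118 comes from the difference of 2 libraries, and low genes such as vg and en had few reads. Among the 10 disc genes the count called higher was 1 under every alternative except the stranded column, where it was 2 because vg joined nub. The count called lower was 2 with the stranded column, where ap joined ci, 0 with library size only, between 0 and 1 with each replicate left out, and 0 without both moult-high libraries. In the pathway and region lists the count lower was 4 with library size only, between 1 and 10 with each replicate left out, and 1 without both moult-high libraries. The count higher was 18 with DESeq2, 21 with library size only, between 2 and 15 with each replicate left out, and 2 without both. The lowest of these were without y1w1118 replicate 1 or 2, which leaves 1 library that is assumed to vary like the mutant ones. Tissue and stage markers called higher were between 4 and 12 with each replicate left out and 5 without both, against 10 with all 5 libraries, and those called lower were between 25 and 37, against 34. Over all genes, 796 were lower and 614 higher without y1w1118 replicate 1, 836 and 596 without replicate 2, and 992 and 607 without both moult-high libraries, against 1735 and 1618. Library size only moved the median of all genes by 0.14 and the share of higher calls to 59.4%, against 48.3%. With the replicate block the counts were 1 lower and 1 higher in the disc genes, 7 lower and 11 higher in the pathway and region lists, and 1574 lower and 1393 higher over all genes. Same-numbered libraries did not deviate together (r = -0.51 for number 1 and -0.27 for number 2). The crossed numbers had r = 0.51 and 0.27. These only mirror the first values, because the 2 y1w1118 libraries deviate equally and oppositely from their mean. The cause of these moves was not tested.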
